A study of Schizosaccharomyces pombe with 8 samples.

Results

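The 133 coding genes that begin inside the windows around the 3 centromeres of fission yeast were examined here, out of 5137 coding features in the deposited count table. A gene was a member when its start, in the coordinates of the files (build ASM294v2), fell between 3700000 and 3840000 on chromosome I, between 1550000 and 1695000 on chromosome II or between 1020000 and 1187000 on chromosome III. This gave 45 genes at centromere 1, 44 at centromere 2 and 44 at centromere 3. The rule uses position alone, though it was set with earlier results of these data known. RNA sequencing of rRNA-depleted total RNA was done in 4 groups of Schizosaccharomyces pombe with 2 libraries each. They carried the genotype labels nht1-delta, iec1-delta, iec5-delta and WT, and all grew in YEA, a rich medium, to mid-log phase. The nht1, iec1 and iec5 genes encode subunits of INO80, a chromatin remodelling complex that moves and exchanges nucleosomes. Each genotype is 1 strain. The strain codes in the sample titles begin with SPJ for WT and with CS for the other 3. Further differences between the strains are not given and cannot be told apart from the labelled genotypes. The labels do not say whether the 2 libraries came from separate cultures. The p-values thus measure only the spread between these libraries, which may be technical.

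In fission yeast each centromere has a central core that carries the CENP-A nucleosomes on which the kinetochore is built. The core is framed by repeats packed into heterochromatin, which needs methylation of histone H3 on lysine 9, Swi6 and the RNA interference pathway. Heterochromatin ends near boundaries, some of them marked by tRNA genes, and ordinary protein-coding genes begin just outside. INO80 is known as a factor that affects how much CENP-A sits at centromeres. The genes described here are the first annotated coding genes on both sides of that domain.

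The 8 libraries held between 2208165 and 3426063 counts over coding features, and 3 counts, taken as the floor of detection, corresponded to between 0.875 and 1.38 CPM (counts scaled to library size, with TMM factors). Reads over the genes named in the genotypes did not all match the labels. Reads over nht1 came to 24.8 and 34.9 CPM in libraries labelled nht1 and 48.6 and 41.6 CPM in wild-type libraries, a log2 fold change of -0.60 (SE 0.24, edgeR adjusted p = 0.212). Over iec1 there were 95.4 and 88.4 CPM in libraries labelled iec1, against 40.5 and 36.4 CPM in wild-type libraries, a log2 fold change of 1.25 (SE 0.21, edgeR adjusted p = 0.000741). The iec1 reads thus go against the deletion label. The nht1 reads, lower than in both wild-type libraries, were far from absent and not called lower, so that they do not bear out a deletion either. The direction of every change below is that of the libraries under their labels. Over iec5 there were 3.29 and 1.46 CPM in iec5 libraries and 12.4 and 12.8 CPM in wild-type libraries, a log2 fold change of -2.41 (SE 0.47, edgeR adjusted p = 0.0278).

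The promoters of 4 genes on which the results turn are printed first. The genes bud6, SPAC15E1.02c and ser1 at centromere 1 rose in both the nht1- and the iec1-labelled libraries, and meu25 at centromere 2 rose in the iec1-labelled ones beside its divergent neighbour ask1, which shares 250 of the 300 bases of its window. They were taken from the 6 called members whose gene start differs by at most 50 bases between the files and the RefSeq annotation of build ASM294v3. Each window runs from 250 bases before the RefSeq gene start to 50 bases after it, is read 5′ to 3′ on the strand of the gene, and comes from the RefSeq genome of build ASM294v3. Capitals mark the letters of the CRE motif, to which Atf1-type stress factors bind. The windows are chrI:3716393-3716692, plus strand for bud6, chrI:3721787-3722086, minus strand for SPAC15E1.02c, chrI:3815422-3815721, plus strand for ser1 and chrII:1563652-1563951, plus strand for meu25.
bud6: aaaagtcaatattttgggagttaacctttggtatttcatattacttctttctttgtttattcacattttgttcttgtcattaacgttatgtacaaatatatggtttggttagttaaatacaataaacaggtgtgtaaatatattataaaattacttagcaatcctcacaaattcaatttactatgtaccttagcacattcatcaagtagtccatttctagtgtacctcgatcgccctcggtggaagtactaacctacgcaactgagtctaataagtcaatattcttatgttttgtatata
SPAC15E1.02c: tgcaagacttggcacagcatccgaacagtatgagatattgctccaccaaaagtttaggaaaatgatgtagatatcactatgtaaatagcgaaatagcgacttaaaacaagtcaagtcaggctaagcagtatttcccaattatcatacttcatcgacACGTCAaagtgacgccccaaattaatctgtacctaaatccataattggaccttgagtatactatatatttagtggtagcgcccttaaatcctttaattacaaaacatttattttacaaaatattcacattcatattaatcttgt
ser1: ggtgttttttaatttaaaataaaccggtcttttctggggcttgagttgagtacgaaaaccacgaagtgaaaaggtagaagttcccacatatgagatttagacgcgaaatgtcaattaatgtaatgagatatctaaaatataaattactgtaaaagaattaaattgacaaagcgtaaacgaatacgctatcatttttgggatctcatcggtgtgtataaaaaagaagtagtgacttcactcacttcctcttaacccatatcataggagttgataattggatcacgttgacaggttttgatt
meu25: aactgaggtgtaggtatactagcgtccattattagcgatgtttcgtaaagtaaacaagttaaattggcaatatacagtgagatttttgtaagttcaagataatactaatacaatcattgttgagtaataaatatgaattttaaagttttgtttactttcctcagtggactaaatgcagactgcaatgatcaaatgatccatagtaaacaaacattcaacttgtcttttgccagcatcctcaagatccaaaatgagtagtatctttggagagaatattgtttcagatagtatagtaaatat

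A set of 6 short motifs was looked for on both strands in the windows of all 133 members and of 5114 genes in all, without regard to overlaps between motifs. The CRE letters TGACGT lay in 9.77% of the members' windows and in 5.91% of all windows, and among the 15 called members only in that of SPAC15E1.02c, where the match begins 94 bases before the gene start. The letters GATAAG, the core of sites for GATA factors, lay in 12.8% of the members' windows, against 11.6% of all, and in 4 called members, per1, pat1, sre1 and pdx1. The sterol element TCACNCCA lay in 0.752% against 1.94%, and the 1 member with it was sre1, which encodes the factor that binds such elements. The MCB letters ACGCGT lay in 4.51% against 3.25%, the heat shock pair GAANNTTC in 7.52% against 11.1% and the HomolD box CAGTCACA in 3.01% against 2.68%, with no called member among them. A match is a run of letters, not a binding site.

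In each window the genes stood on both sides of 1 long interval free of coding features. This interval measured 39.2 kb at centromere 1, 51.4 kb at centromere 2 and 78.2 kb at centromere 3, while the next longest gaps were 3.86, 4.71 and 1.95 kb. Distances below run from the gene end nearest the centromere to the edge of that interval. The members were transcribed about equally in both directions, with 65 pointing away from the centromere and 68 towards it. Levels covered the range of ordinary genes. The highest levels per kb of gene span, averaged over the 8 libraries, were 3739 CPM per kb for tma19, a ribosome-associated TCTP protein, 2319 for the ribosomal protein gene rpl42 and 1559 for the ribosomal protein gene rps1802. Among tested members the lowest were 2.12 CPM per kb for meu1, 3.71 for cgr1 and 4.02 for any2, all of which share most of their span with another coding gene. Among genes that overlap no other coding feature, the median level in wild-type libraries was 39.4 CPM per kb for 67 members and 42.2 CPM per kb for all 2523 such genes. The same median was 46.8 CPM per kb for genes that start within 150 kb outside the windows and 0.935 CPM per kb for genes of the outermost 100 kb of chromosomes I and II. Together the members held between 2.49% and 2.67% of the coding counts of a library.

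Overlap with a neighbour set what could be measured. Of the 133 members, 66 overlapped another coding feature and 36 a noncoding one. A low-count filter left 121 members to test and removed 12. Only moa1, which encodes the meiotic kinetochore protein meikin, was removed without any overlap, with at most 5 counts in a library. The other 11 were covered over at least 90% of their span by 1 or 2 coding genes on the opposite strand: lys1, azr1, cdd1, SPAC1F12.06c, SPAC4H3.17, rdl2, kgd4, taf8, meu27, fra3 and lsg1. Of the 12 genes, 9 were listed at 0 in all 8 libraries. Across the whole table all 233 coding features that lie fully inside others were at 0 in every library, against 20 of 2523, or 0.793%, of those that overlap none. For lys1, which encodes an enzyme of lysine synthesis, and for taf8, a subunit of the transcription factor TFIID, the counts therefore say nothing about expression. How strand was set in counting is not given in the sources, and its part in these zeros was not tested.

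**Figure D1:**
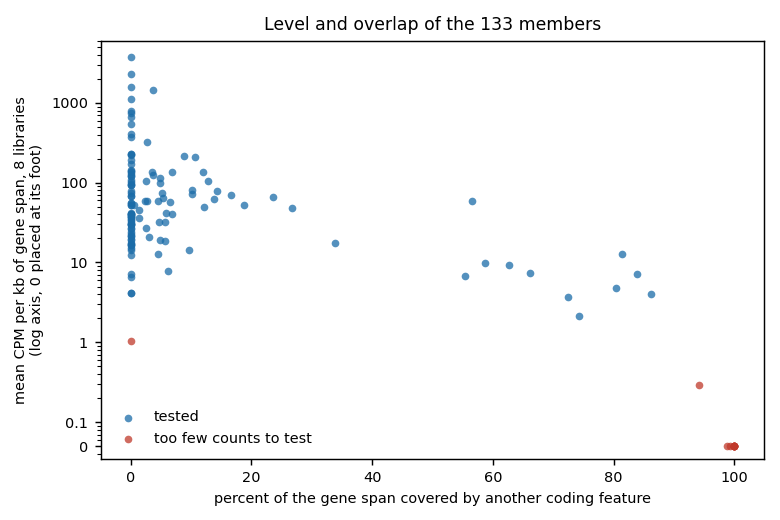
Each point is 1 of the 133 members, with the percent of its span covered by another coding feature on the x axis and its mean CPM per kb over the 8 libraries on a log y axis. The 121 tested members are blue and the 12 untested ones red, and the red points lie at the right edge except moa1 at 0%.

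The 3 coding genes nearest each side of each interval gave 18 genes, of which 17 could be tested and 1, per1, was called (adjusted p under 0.05). This is 5.88% under the nht1 label and under the iec1 label, where 4.13% and 10.3% of all coding genes were called. The count is thus not a result about nearness to the centromere. At centromere 1 the innermost gene on the left is per1 (chrI:3748767-3751729, plus strand), which encodes an amino acid permease of the plasma membrane. It had 64.2 and 57.1 CPM in the libraries labelled nht1, 70.1 and 59.0 CPM in those labelled iec1, 41.5 and 30.9 CPM in iec5 libraries and 41.1 and 26.6 CPM in wild-type libraries. The libraries labelled nht1 and iec1 all stood above both wild-type libraries, while the iec5 values overlapped them. The log2 fold change was 0.84 (SE 0.23, edgeR adjusted p = 0.0475) under the nht1 label, 0.92 (SE 0.23, edgeR adjusted p = 0.0142) under the iec1 label and 0.09 (SE 0.24, edgeR adjusted p = 0.993) in iec5. The nht1-label call was lost without wild-type replicate 2, nht1 replicate 1 or nht1 replicate 2 (adjusted p between 0.169 and 0.401), and the iec1-label call when iec1 replicate 1 or wild-type replicate 2 was left out (0.0865 to 0.192). A noncoding feature, SPNCRNA.935, overlaps per1 on the same strand. Next to it, the ribosomal protein gene rpl1002 had 271 and 359 CPM in the libraries labelled nht1, 330.1 and 285 CPM in those labelled iec1, 320.5 and 303 CPM in iec5 libraries and 327 and 398 CPM in wild-type libraries. The fusion protein gene prm1, which acts in mating and shares most of its span with lys1, had 65.7 and 48.7 CPM in the libraries labelled nht1, 49.97 and 68.4 CPM in those labelled iec1, 71.1 and 76.4 CPM in iec5 libraries and 69.8 and 71.5 CPM in wild-type libraries. Neither gene differed from wild type by more than 0.30 on the log2 scale under any label. The noncoding SPNCRNA.933, which covers rpl1002 on the opposite strand, had 339 and 410 CPM in wild-type libraries, near the values of rpl1002. Whether counting kept the strands apart was not tested.

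On the right of centromere 1 the innermost gene is emc5, a subunit of a membrane protein insertion complex of the endoplasmic reticulum. It had 41.2 and 47.6 CPM in the libraries labelled nht1, 41.3 and 52.6 CPM in those labelled iec1, 53.4 and 40.8 CPM in iec5 libraries and 45.0 and 32.1 CPM in wild-type libraries. Its neighbour rad50, part of the Mre11 complex of double-strand break repair, had 207 and 239 CPM in the libraries labelled nht1, 228 and 285 CPM in those labelled iec1, 207 and 239 CPM in iec5 libraries and 216 and 262 CPM in wild-type libraries. The groups overlapped for both genes. The succinate dehydrogenase gene sdh1 had 621 and 496 CPM in the libraries labelled nht1, 506 and 505 CPM in those labelled iec1, 470.4 and 481 CPM in iec5 libraries and 497 and 367 CPM in wild-type libraries, and its largest log2 fold change was 0.37 (SE 0.15, edgeR adjusted p = 0.212) under the nht1 label.

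At centromere 2 the interval lies between rpb1, the largest subunit of RNA polymerase II, and yox1, a repressor of cell cycle transcription. For rpb1 there were 820.0 and 697 CPM in the libraries labelled nht1, 679.9 and 648 CPM in those labelled iec1, 733 and 711 CPM in iec5 libraries and 785 and 705 CPM in wild-type libraries. For yox1 there were 18.6 and 25.1 CPM in the libraries labelled nht1, 18.3 and 16.4 CPM in those labelled iec1, 24.7 and 21.0 CPM in iec5 libraries and 20.8 and 20.5 CPM in wild-type libraries. For both genes the iec1-labelled pair lay below both wild-type libraries and the nht1-labelled pair overlapped them, while the iec5 pair overlapped wild type for rpb1 and lay above it for yox1. None was called. The log2 fold changes were 0.03 for rpb1 and 0.07 for yox1 under the nht1 label, -0.17 and -0.26 under the iec1 label, and -0.05 and 0.14 in iec5. The HMG-box gene hmo1, second on the left, had 320.2 and 320.0 CPM in the libraries labelled nht1, 308 and 309.8 CPM in those labelled iec1, 229 and 285 CPM in iec5 libraries and 252 and 243 CPM in wild-type libraries. Both the nht1- and the iec1-labelled pairs lay above the wild-type pair for hmo1, but the log2 fold changes of 0.37 (SE 0.14, edgeR adjusted p = 0.159) and 0.32 (SE 0.14, edgeR adjusted p = 0.16) missed the threshold. The SAGA subunit gene ngg1, the third on the left, had 138 and 127 CPM in the libraries labelled nht1, 151 and 146 CPM in those labelled iec1, 139 and 131 CPM in iec5 libraries and 132 and 136 CPM in wild-type libraries. The meiotic recombination gene rec6 had 22.6 and 21.8 CPM in the libraries labelled nht1, 27.97 and 35.5 CPM in those labelled iec1, 31.6 and 31.5 CPM in iec5 libraries and 27.2 and 32.7 CPM in wild-type libraries. The mannose transfer gene dpm2 had 10.1 and 5.46 CPM in the libraries labelled nht1, 7.79 and 11.7 CPM in those labelled iec1, 6.92 and 5.54 CPM in iec5 libraries and 7.85 and 7.64 CPM in wild-type libraries. None of these 3 was called in a comparison, and dpm2 was measured with an SE of 0.42 (nht1 label against wild type).

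At centromere 3 the interval is framed by chk1, the DNA damage checkpoint kinase, and ppc1. For chk1 there were 56.9 and 38.2 CPM in the libraries labelled nht1, 54.1 and 54.0 CPM in those labelled iec1, 40.8 and 37.6 CPM in iec5 libraries and 46.2 and 43.1 CPM in wild-type libraries. For ppc1 there were 206 and 216 CPM in the libraries labelled nht1, 230.1 and 218 CPM in those labelled iec1, 217 and 220.2 CPM in iec5 libraries and 214 and 242 CPM in wild-type libraries. For chk1 the nht1-labelled pair overlapped wild type, the iec1-labelled pair lay above it and the iec5 pair below it, and none was called. Its log2 fold changes were 0.10 under the nht1 label, 0.28 under the iec1 label and -0.19 in iec5. The gene meu27 lies fully inside chk1 on the other strand and was at 0 in all 8 libraries. The ubiquitin-conjugating enzyme gene ubc11, the third on the left, had 32.1 and 35.6 CPM in the libraries labelled nht1, 34.4 and 38.2 CPM in those labelled iec1, 38.5 and 34.99 CPM in iec5 libraries and 34.4 and 40.05 CPM in wild-type libraries. The cytochrome oxidase assembly gene cmc2, which shares most of its span with a neighbour, had 2.83 and 6.91 CPM in the libraries labelled nht1, 5.04 and 4.40 CPM in those labelled iec1, 4.28 and 3.79 CPM in iec5 libraries and 3.02 and 3.67 CPM in wild-type libraries. Its neighbour cbp3, which acts in assembly of the cytochrome bc1 complex, had 22.3 and 26.9 CPM in the libraries labelled nht1, 29.8 and 21.7 CPM in those labelled iec1, 27.0 and 22.7 CPM in iec5 libraries and 22.6 and 15.9 CPM in wild-type libraries. For cbp3 the log2 fold changes were 0.35, 0.40 and 0.36 under the nht1 label, under the iec1 label and in iec5, none of them called. No gene at centromere 3 within 10 kb of the interval was called in any comparison with wild type.

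**Figure D2:**
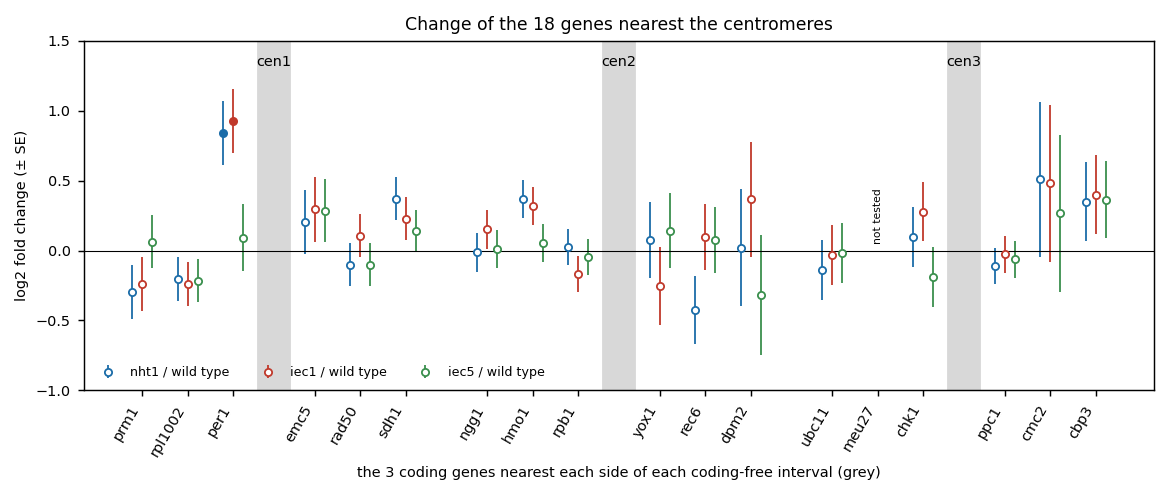
The log2 fold change against wild type, with its SE, is drawn for the 3 coding genes nearest each side of each coding-free interval (grey bars), in blue for the nht1 label, red for the iec1 label and green for iec5 (n = 2 libraries a group). Filled points are called, and per1 at centromere 1 is the 1 gene with filled points. This is 5.88% of the tested genes shown under the nht1 and the iec1 label, against 4.13% and 10.3% of all coding genes.

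Over all members, few genes were called and most that were rose. In the libraries labelled nht1, 6 of 121 tested members rose against wild type and 0 fell, which is 4.96%, where 4.13% of all 4652 tested coding genes were called (3.14% higher and 0.989% lower). In the libraries labelled iec1, 14 rose and 1 fell, or 12.4%, against a background of 10.3% (8.04% higher and 2.21% lower). In iec5 no member was called by edgeR or by DESeq2, with 2 at an unadjusted p under 0.05, against a background of 0.408%. The shares of the members thus lay near those of all genes and are not a result about them. In these bulk cultures, a change in RNA per cell cannot be told apart from a change in the share of cells that carry it. The 3 comparisons share the same 2 wild-type libraries. Counts depended on single libraries. The 6 calls under the nht1 label became 0 when wild-type replicate 2 or any 1 of the nht1 pair was left out, and 3 when wild-type replicate 1 was. The 15 calls under the iec1 label became 3 when wild-type replicate 2 was left out and 6 when iec1 replicate 1 was.

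The median log2 fold change of the tested members was 0.06 under the nht1 label, 0.08 under the iec1 label and 0.05 in iec5, against 0.02, 0.02 and 0.01 over all coding genes. Both nht1-labelled libraries lay above both wild-type libraries for 31 of the 121 members, or 25.6%, and for 26.8% of all genes. Under the iec1 label this held for 33 members, or 27.3%, against 27.8% of all genes, and in iec5 for 23, or 19.0%, against 18.1%. Genes starting within 150 kb outside the windows are given beside them: 8 rose and 2 fell of 355 under the nht1 label, 27 rose and 7 fell under the iec1 label, and 0 of 355 were called in iec5 (11 at an unadjusted p under 0.05). Of 57 tested genes in the outermost 100 kb of chromosomes I and II, another heterochromatic neighbourhood, 2 rose and 1 fell under the nht1 label, 11 rose and 3 fell under the iec1 label, and 2 fell in iec5. Differences between these places were not tested.

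**Figure D3:**
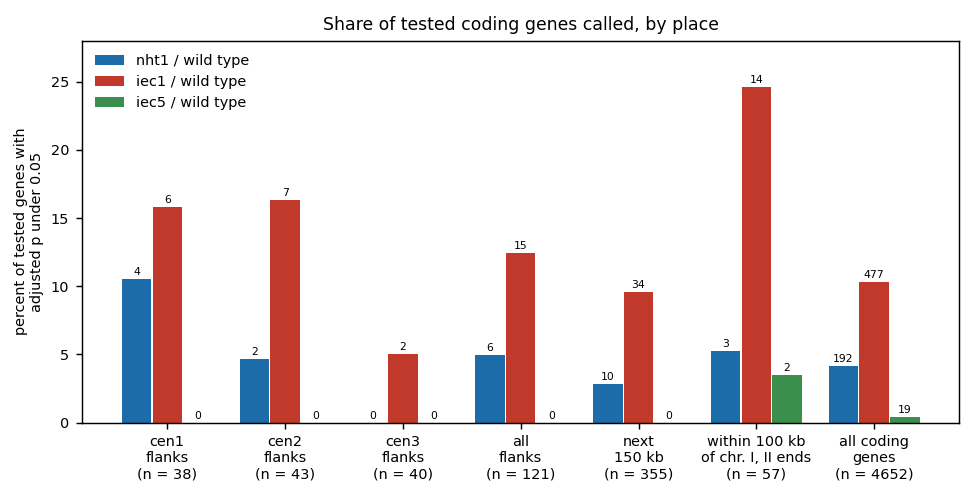
Bars give the percent of tested coding genes with an edgeR adjusted p under 0.05 against wild type, by place, in blue for the nht1 label, red for the iec1 label and green for iec5, with the number called above each bar. The flanks of all 3 centromeres together stand at 4.96%, 12.4% and 0, close to 4.13%, 10.3% and 0.408% for all coding genes.

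Of the 15 called members, 6 were called under both labels and 9 under the iec1 label alone, with no called difference between the 2 labels for any of them. Of all 4652 tested coding genes, 192 were called under the nht1 label and 477 under the iec1 label. The same split over all genes is not given here, so that the split of the members is not a result about them. At centromere 1, 5 of 38 tested members rose and 1 fell under the iec1 label, and 4 rose under the nht1 label. Over all coding genes 8.04% rose and 2.21% fell under the iec1 label, and 3.14% rose under the nht1 label. The pair bud6 (chrI:3716643-3720963, plus strand) and SPAC15E1.02c (chrI:3721257-3721816, minus strand) lies on the left, 30.8 and 29.9 kb out, where the 2 genes converge with 293 bp between their ends. The gene bud6, whose promoter is printed above, encodes an actin-interacting protein of cell polarity. It had 145 and 144 CPM in the libraries labelled nht1, 178 and 151 CPM in those labelled iec1, 126 and 109 CPM in iec5 libraries and 101 and 83.8 CPM in wild-type libraries. The pairs labelled nht1, iec1 and iec5 all lay above both wild-type libraries. It stood at a log2 fold change of 0.65 (SE 0.16, edgeR adjusted p = 0.0249) under the nht1 label, 0.83 (SE 0.16, edgeR adjusted p = 0.00185) under the iec1 label and 0.35 (SE 0.16, edgeR adjusted p = 0.965) in iec5. The uncharacterized gene SPAC15E1.02c, whose promoter holds the CRE letters, had 76.7 and 79.3 CPM in the libraries labelled nht1, 84.8 and 84.0 CPM in those labelled iec1, 56.0 and 29.7 CPM in iec5 libraries and 39.9 and 31.5 CPM in wild-type libraries. Every nht1- and iec1-labelled value stood well above both wild-type values, and the iec5 values overlapped the wild-type ones. This gave a log2 fold change of 1.13 (SE 0.24, edgeR adjusted p = 0.0105) under the nht1 label, 1.24 (SE 0.24, edgeR adjusted p = 0.00201) under the iec1 label and 0.26 (SE 0.24, edgeR adjusted p = 0.993) in iec5. The nht1-label calls were lost without wild-type replicate 2, nht1 replicate 1 or nht1 replicate 2, at adjusted p between 0.132 and 0.247 for bud6 and between 0.0768 and 0.152 for SPAC15E1.02c. By contrast, the iec1-label call of bud6 held when any 1 library was left out, and that of SPAC15E1.02c was lost, at 0.0501, without wild-type replicate 2.

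On the right of centromere 1, ser1 (chrI:3815681-3817165, plus strand), which encodes phosphoserine aminotransferase of serine synthesis, had 347 and 385 CPM in the libraries labelled nht1, 368 and 386 CPM in those labelled iec1, 287 and 312 CPM in iec5 libraries and 271 and 238 CPM in wild-type libraries. All 6 libraries labelled nht1, iec1 or iec5 stood above both wild-type libraries. Against wild type the log2 fold change came to 0.52 (SE 0.13, edgeR adjusted p = 0.0313) under the nht1 label, 0.57 (SE 0.13, edgeR adjusted p = 0.00944) under the iec1 label and 0.24 (SE 0.13, edgeR adjusted p = 0.993) in iec5. The gene overlaps 3 coding neighbours, any2, cab4 and SPAC1F12.06c. On the left, the glutaredoxin gene grx2 (chrI:3731077-3732340, plus strand) had 87.8 and 101 CPM in the libraries labelled nht1, 103 and 91.0 CPM in those labelled iec1, 73.1 and 65.6 CPM in iec5 libraries and 62.5 and 63.0 CPM in wild-type libraries. It rose under the iec1 label by 0.62 (SE 0.16, edgeR adjusted p = 0.0203) on the log2 scale and just missed the threshold under the nht1 label, at 0.59 (SE 0.16, edgeR adjusted p = 0.0528). The 1 member that fell was cbs2 (chrI:3807132-3808739, minus strand), annotated as a protein kinase activator. It had 211 and 231 CPM in the libraries labelled nht1, 171 and 208 CPM in those labelled iec1, 203 and 237 CPM in iec5 libraries and 277 and 259 CPM in wild-type libraries. All 6 libraries labelled nht1, iec1 or iec5 lay below both wild-type libraries, with log2 fold changes of -0.28 (SE 0.14, edgeR adjusted p = 0.335) under the nht1 label, -0.49 (SE 0.14, edgeR adjusted p = 0.0348) under the iec1 label and -0.28 (SE 0.14, edgeR adjusted p = 0.993) in iec5. The cbs2 call was lost without either wild-type library, either nht1 library or iec1 replicate 1 (adjusted p between 0.0525 and 0.282), and in a fit of those 2 groups alone (0.0651). The grx2 call was lost without iec1 replicate 1 or either of the wild-type pair (0.0967 to 0.132). For ser1 the iec1-label call was lost without wild-type replicate 2 or iec1 replicate 2 (0.0678 to 0.114), and the nht1-label call without any of the 4 nht1 and wild-type libraries (0.0703 to 0.263).

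At centromere 2, 7 of 43 tested members rose and 0 fell under the iec1 label, and 2 rose under the nht1 label, where 8.04% and 3.14% of all coding genes rose under these labels. The largest change was that of sfr1 (chrII:1580286-1581880, plus strand), which encodes a protein of DNA recombination. It had 34.3 and 35.6 CPM in the libraries labelled nht1, 53.2 and 42.0 CPM in those labelled iec1, 28.3 and 16.6 CPM in iec5 libraries and 18.4 and 12.5 CPM in wild-type libraries. The values were highest under the iec1 label and stood apart from wild type under the nht1 label too, and the iec5 pair overlapped the wild-type pair. The log2 fold change was 1.17 (SE 0.29, edgeR adjusted p = 0.0288) under the nht1 label, 1.61 (SE 0.29, edgeR adjusted p = 0.00124) under the iec1 label and 0.53 (SE 0.30, edgeR adjusted p = 0.993) in iec5. The gene overlaps mdm12 and hrd3 on the opposite strand. On the right, pat1 (chrII:1680745-1684555, plus strand), which encodes the kinase that holds back meiosis, had 35.5 and 38.9 CPM in the libraries labelled nht1, 40.8 and 30.8 CPM in those labelled iec1, 19.4 and 20.1 CPM in iec5 libraries and 16.9 and 16.2 CPM in wild-type libraries. All 6 libraries labelled nht1, iec1 or iec5 stood above both wild-type libraries. It stood at a log2 fold change of 1.17 (SE 0.25, edgeR adjusted p = 0.0123) under the nht1 label, 1.10 (SE 0.25, edgeR adjusted p = 0.00862) under the iec1 label and 0.26 (SE 0.26, edgeR adjusted p = 0.993) in iec5. The noncoding SPNCRNA.108 overlaps pat1 on its strand. The iec1-label call of sfr1 held when any 1 library was left out, whereas that of pat1 was lost without iec1 replicate 1 or either of the wild-type pair (adjusted p between 0.0534 and 0.0837). Under the nht1 label both calls were lost when any of the 4 nht1 and wild-type libraries was left out, at 0.0625 to 0.285 for sfr1 and 0.0659 to 0.124 for pat1.

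Next to each other on the left of centromere 2 are ask1 (chrII:1562326-1563675, minus strand), a subunit of the DASH complex that couples kinetochores to microtubules, and meu25 (chrII:1563859-1566027, plus strand), named for its rise in meiosis. They diverge, with 183 bp between their starts in the files, and the meu25 window printed above covers upstream sequence of both. The gene ask1 had 20.1 and 20.4 CPM in the libraries labelled nht1, 28.9 and 36.7 CPM in those labelled iec1, 23.7 and 23.9 CPM in iec5 libraries and 19.3 and 15.3 CPM in wild-type libraries, and meu25 had 65.4 and 60.7 CPM in the libraries labelled nht1, 85.7 and 82.8 CPM in those labelled iec1, 38.5 and 43.2 CPM in iec5 libraries and 37.4 and 49.2 CPM in wild-type libraries. For both, the iec1-labelled pair lay highest. The log2 fold changes under the iec1 label were 0.93 (SE 0.26, edgeR adjusted p = 0.028) for ask1 and 0.96 (SE 0.19, edgeR adjusted p = 0.00231) for meu25, against 0.23 (SE 0.27, edgeR adjusted p = 0.73) and 0.54 (SE 0.19, edgeR adjusted p = 0.126) under the nht1 label. A noncoding feature, SPNCRNA.1446, overlaps the start of ask1 on its strand and lies over most of meu25 on the opposite strand. It had 86.6 and 87.5 CPM in the libraries labelled iec1 and 34.1 and 43.4 CPM in wild-type libraries, near the values of meu25. Reads of the 3 features may thus not be separate, which was not tested. The iec1-label call of ask1 was lost without iec1 replicate 2 or either of the wild-type pair (adjusted p between 0.0624 and 0.215), and that of meu25 without wild-type replicate 1 (0.0501).

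The other 3 members that rose at centromere 2 were called under the iec1 label alone. The sulfate adenylyltransferase gene sua1 (chrII:1571423-1573100, minus strand), which starts sulfate assimilation, had 711 and 796 CPM in the libraries labelled nht1, 1002 and 708 CPM in those labelled iec1, 655 and 600.4 CPM in iec5 libraries and 556 and 508 CPM in wild-type libraries. The oligopeptide transporter gene isp4 (chrII:1550293-1553467, minus strand) had 45.9 and 59.6 CPM in the libraries labelled nht1, 78.4 and 51.1 CPM in those labelled iec1, 39.2 and 28.3 CPM in iec5 libraries and 37.4 and 21.4 CPM in wild-type libraries. The gene of the sterol-responsive transcription factor Sre1 (chrII:1691270-1694691, plus strand) had 50.6 and 51.3 CPM in the libraries labelled nht1, 81.1 and 59.6 CPM in those labelled iec1, 57.6 and 33.8 CPM in iec5 libraries and 44.4 and 36.4 CPM in wild-type libraries. All 3 had their highest value in iec1 replicate 1, which also had the lowest depth of the 8. The iec1-label log2 fold changes were 0.68 (SE 0.15, edgeR adjusted p = 0.00671) for sua1, 1.12 (SE 0.28, edgeR adjusted p = 0.0141) for isp4 and 0.79 (SE 0.24, edgeR adjusted p = 0.0436) for sre1. Under the nht1 label they were 0.50 (SE 0.15, edgeR adjusted p = 0.0709), 0.84 (SE 0.28, edgeR adjusted p = 0.109) and 0.33 (SE 0.24, edgeR adjusted p = 0.522) in the same order. All 3 calls were lost without iec1 replicate 1 and without wild-type replicate 2, and that of sre1 also without either nht1 library or wild-type replicate 1. The adjusted p of the lost calls lay between 0.0835 and 0.137 for sua1, 0.143 and 0.195 for isp4, and 0.0691 and 0.293 for sre1.

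At centromere 3, 2 of 40 tested members rose under the iec1 label and 0 were called under the nht1 label, where 6 had an unadjusted p under 0.05. The share of all coding genes that rose was 8.04% under the iec1 label and 3.14% under the nht1 label. The pyruvate dehydrogenase component gene pdx1 (chrIII:1049947-1051870, minus strand) had 287 and 248 CPM in the libraries labelled nht1, 309.9 and 313 CPM in those labelled iec1, 240.1 and 265 CPM in iec5 libraries and 228 and 202 CPM in wild-type libraries. The inositol pentakisphosphate kinase gene ipk1 (chrIII:1158148-1160394, plus strand) had 24.5 and 26.2 CPM in the libraries labelled nht1, 72.0 and 28.2 CPM in those labelled iec1, 24.4 and 23.6 CPM in iec5 libraries and 15.4 and 11.3 CPM in wild-type libraries. All 6 libraries labelled nht1, iec1 or iec5 stood above both wild-type libraries for both genes, but 1 library, iec1 replicate 1, set the size of the ipk1 change. The log2 fold changes were 0.53 (SE 0.14, edgeR adjusted p = 0.0164) for pdx1 and 1.87 (SE 0.36, edgeR adjusted p = 0.0021) for ipk1 under the iec1 label, and 0.31 (SE 0.14, edgeR adjusted p = 0.243) and 0.92 (SE 0.37, edgeR adjusted p = 0.206) under the nht1 label. In iec5 they were 0.23 (SE 0.14, edgeR adjusted p = 0.993) and 0.84 (SE 0.37, edgeR adjusted p = 0.942). The pdx1 call was lost without wild-type replicate 2 or either iec1 library (adjusted p between 0.059 and 0.155), and the ipk1 call when either iec1 replicate 1 or wild-type replicate 2 was left out (0.0501 to 0.051).

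**Figure D4:**
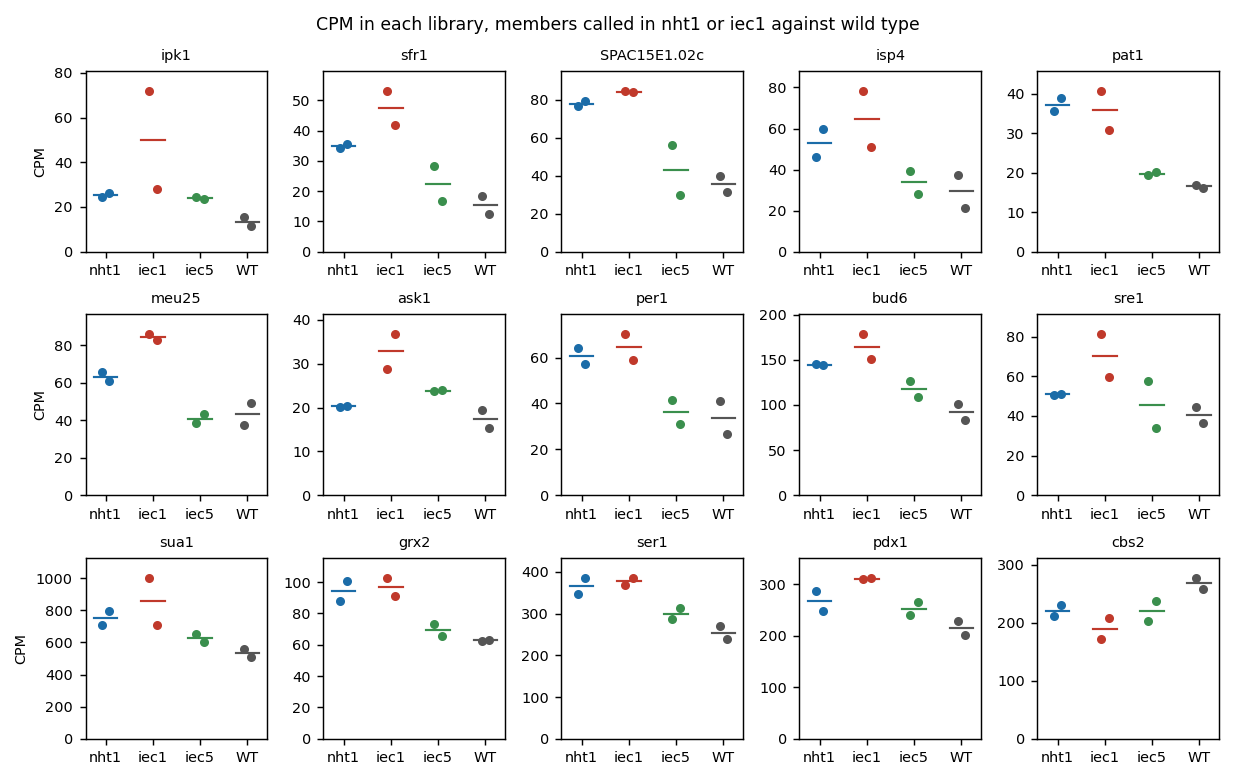
CPM in each library for the 15 members called in the libraries labelled nht1 or iec1 against wild type, with 2 points and their mean (line) a group, from left nht1, iec1, iec5 and wild type (WT). In 14 panels the nht1 and iec1 pairs lie above wild type, and cbs2 is the 1 panel where they lie below.

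Over the 15 called members, both nht1-labelled and both iec1-labelled libraries lay above both wild-type libraries in 14 each, which follows in part from the calls. In iec5, where no member was called, 8 of the 15 had both libraries above both wild-type libraries, with log2 fold changes between -0.28 and 0.84. Since all 3 comparisons use the same wild-type libraries, these counts are not independent. Of the 15, 4 overlap another coding feature: grx2, ser1, sfr1 and pdx1.

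Distance from the centromere ordered the changes in no common way. Under the iec1 label, 1 of 27 tested members within 10 kb of the interval was called, 7 of 44 between 10 and 25 kb, and 7 of 50 farther out. Under the nht1 label the counts were 1, 2 and 3. Of all coding genes, 10.3% were called under the iec1 label and 4.13% under the nht1 label, and differences between the distance classes were not tested. Spearman's rho between distance and log2 fold change under the iec1 label was -0.07 over 38 genes at centromere 1, 0.33 over 43 at centromere 2 and -0.25 over 40 at centromere 3. The rho was -0.05, 0.18 and -0.27 under the nht1 label, and -0.06, 0.36 and 0.05 in iec5. These are descriptions, since neighbouring genes share the libraries and are not independent points. At centromere 2 the median log2 fold change under the iec1 label was 0.04 over 10 genes within 10 kb, 0.23 over 16 genes between 10 and 25 kb and 0.33 over 17 genes farther out. The centromere 2 median as a whole was 0.21, against 0.06 at centromere 1 and 0.01 at centromere 3. By direction, 9 of 59 tested genes pointing away from the centromere and 6 of 62 pointing towards it were called under the iec1 label.

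**Figure D5:**
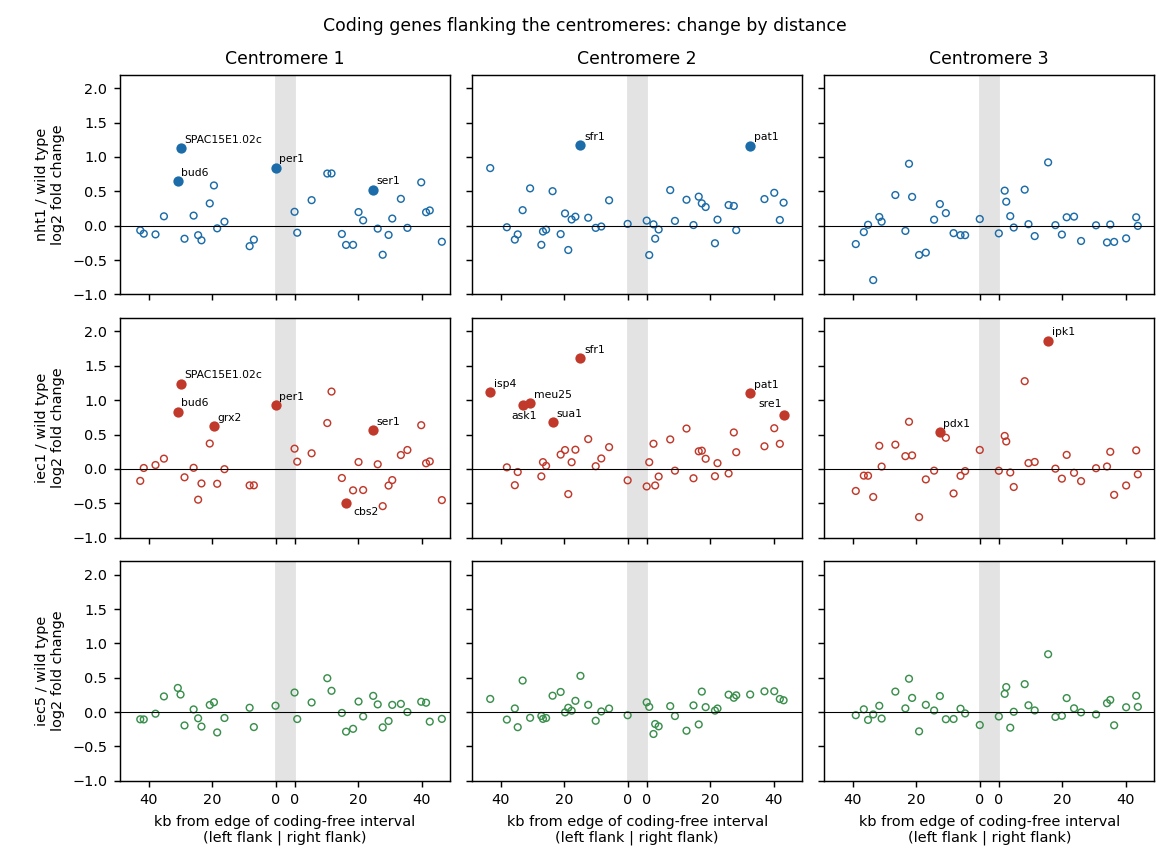
The log2 fold change of each tested member against wild type (y axis) is set against its distance in kb from the edge of the coding-free interval (grey, not to scale), with 1 column a centromere and 1 row a genotype label. Filled, named points are called, and they sit between 0 and 43.3 kb from the interval with no common trend.

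Members were also sorted by annotated role, a sorting made with the values already known, so that its counts are descriptions. The roles leave out many members, and some join unlike pathways. Shares called within a role were thus partly set by the sorting and cannot be read as a theme. Over all coding genes 8.04% rose under the iec1 label and 3.14% under the nht1 label. Of 6 genes of amino acid, peptide, sulfur and purine metabolism, 5 were tested, and per1, isp4, ser1 and sua1 rose under the iec1 label, per1 and ser1 under the nht1 label, with medians of 0.68 and 0.52. Of 8 genes of meiosis, sporulation and mating, 6 were tested and 2 rose under the iec1 label, pat1 and meu25, with pat1 also under the nht1 label. Of 9 genes of chromosome segregation and chromatin, 8 were tested and ask1 alone rose under the iec1 label. This group holds sgo2, the shugoshin that guards centromere cohesion, the histone methyltransferase gene set9 and iec3, which encodes another INO80 subunit. The 9 tested genes of mitochondrial function had a median of 0.31 under the nht1 label, 0.27 under the iec1 label and 0.21 in iec5, with pdx1 the 1 called. The 6 genes of the cytoplasmic ribosome and translation had medians of -0.19, -0.18 and -0.18, none of them called. None of 6 splicing genes was called, and of 7 tested genes of RNA polymerases and transcription factors sre1 alone rose, under the iec1 label. Among 6 tested genes of DNA repair and checkpoint the 1 that rose, under both labels, was sfr1.

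The INO80 subunit gene iec3, named here for its role after its values were seen, lies 22.3 kb left of centromere 3. It had 19.2 and 14.2 CPM in the libraries labelled nht1, 18.8 and 10.9 CPM in those labelled iec1, 13.5 and 11.7 CPM in iec5 libraries and 11.2 and 6.73 CPM in wild-type libraries. This gave a log2 fold change of 0.90 (SE 0.37, edgeR adjusted p = 0.212) under the nht1 label, 0.69 (SE 0.38, edgeR adjusted p = 0.289) under the iec1 label and 0.49 (SE 0.38, edgeR adjusted p = 0.993) in iec5, with no call.

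Differences between the labelled genotypes were tested directly. Between the libraries labelled iec1 and those of iec5, 4 of 121 members differed, all higher under the iec1 label, or 3.31%, against 4.71% of all genes. The log2 fold change of the iec1-labelled over the iec5 libraries was 1.04 (SE 0.19, edgeR adjusted p = 0.00317) for meu25, 1.08 (SE 0.28, edgeR adjusted p = 0.0327) for sfr1, 0.98 (SE 0.23, edgeR adjusted p = 0.0199) for SPAC15E1.02c and 0.83 (SE 0.23, edgeR adjusted p = 0.0465) for per1. The meu25 call held when any 1 library was left out. That of SPAC15E1.02c was lost without either iec1 library or iec5 replicate 2 (adjusted p between 0.0512 and 0.267), that of sfr1 without either nht1 library, iec1 replicate 1 or iec5 replicate 2 (0.057 to 0.34), and that of per1 when any of the 6 libraries labelled nht1, iec1 or iec5 was left out (0.0508 to 0.354). In a fit of the 2 groups alone, these 3 calls were lost too, at 0.066 to 0.0726. Between the iec1 and nht1 labels, no member was called by edgeR or by DESeq2, with 5 at an unadjusted p under 0.05, against a background of 0.15%. Between the nht1 label and iec5, none was called by either tool, with 15 at an unadjusted p under 0.05, against a background of 0.537%.

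Noncoding features in the same windows numbered 71, of which 36 could be tested. Inside the coding-free intervals lay 32 of them, and 25 of these had at most 3 counts in every library. Their counts summed to 32 and 52 in the libraries labelled nht1, 36 and 59 in those labelled iec1, 47 and 46 in iec5 libraries and 50 and 59 in wild-type libraries. These raw sums overlapped wild type in the pairs labelled nht1 and iec1, and the iec5 pair lay just below wild type. They are not scaled for depth, which differed between the libraries, so that they do not rank the groups. The 1 feature inside that was called was SPNCRNA.1172 (chrIII:1068597-1069142, minus strand), annotated as a centromere-proximal noncoding RNA, 4.15 kb from chk1. It had 8 and 17 counts in the libraries labelled nht1, 25 and 24 counts in those labelled iec1, 4 and 6 counts in iec5 libraries and 0 and 7 counts in wild-type libraries. Against wild type the log2 fold change came to 1.97 (SE 0.84, edgeR adjusted p = 0.191) under the nht1 label, 3.04 (SE 0.78, edgeR adjusted p = 0.00744) under the iec1 label and 0.52 (SE 0.97, edgeR adjusted p = 0.964) in iec5. The iec1-label call was lost without wild-type replicate 1, which is at 0, or without iec1 replicate 1, at adjusted p between 0.0597 and 0.099. Over iec5 the iec1-labelled change was 2.52 (SE 0.73, edgeR adjusted p = 0.0307), 1 of 2 noncoding features called in that comparison, or 5.56% against a background of 7.76%.

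Outside the intervals 33 of 39 noncoding features were tested, and 31 of the 39 overlap a coding gene. In all, 6 of 36 noncoding features rose and 0 fell under the iec1 label, or 16.7%, against a background of 14.7% of tested noncoding features. Under the nht1 label 2 rose and 1 fell, or 8.33% against 6.57%, and in iec5 none was called by edgeR (1 at an unadjusted p under 0.05, background 1.46%). The feature antisense to most of meu25, SPNCRNA.1446, had 211 and 166 counts in the libraries labelled nht1, 189 and 298 counts in those labelled iec1, 116 and 136 counts in iec5 libraries and 113 and 142 counts in wild-type libraries. Its log2 fold change was 0.71 (SE 0.19, edgeR adjusted p = 0.0216) under the nht1 label and 1.17 (SE 0.19, edgeR adjusted p = 7.11e-05) under the iec1 label. Antisense to naa40 and pwi1 at centromere 3, SPNCRNA.1168 had 45 and 46 counts in the libraries labelled nht1, 61 and 71 counts in those labelled iec1, 111 and 100 counts in iec5 libraries and 105 and 117 counts in wild-type libraries. It fell under the nht1 label, with a log2 fold change of -1.13 (SE 0.25, edgeR adjusted p = 0.00627). The gene naa40 had the lowest log2 fold change of the tested members under the nht1 label, -0.79, and was not called. Whether the fall of SPNCRNA.1168 is separate from the counts of naa40 and pwi1 was not tested. The others that rose under the iec1 label were SPNCRNA.1443 (1.01), SPNCRNA.1174 (0.98), SPNCRNA.931 (0.71) and SPNCRNA.1448 (0.68). Of these, SPNCRNA.931 also rose under the nht1 label (0.62). On the opposite strand SPNCRNA.931 overlaps grx2 and fub1, SPNCRNA.1448 overlaps sua1, and SPNCRNA.1174 overlaps cwf20 and mid1. The genes grx2 and sua1 were themselves called higher under the iec1 label. How far counts of such features repeat those of the gene on the other strand was not tested. The nht1-label call of SPNCRNA.1168 was lost without nht1 replicate 1 (adjusted p = 0.0818), that of SPNCRNA.1446 without either nht1 library or wild-type replicate 1 (0.0649 to 0.184), and that of SPNCRNA.931 without either wild-type library, either nht1 library or iec1 replicate 2 (0.0561 to 0.292). Under the iec1 label SPNCRNA.1174 was lost without wild-type replicate 2 or iec1 replicate 1 (0.0688 to 0.0747), and SPNCRNA.931 and SPNCRNA.1448 without iec1 replicate 1 (0.0808 and 0.263).

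Lists of factors that act at centromeres were also read, chosen with earlier results of these data known. How their calls hold when 1 library is left out is not given here. Of 27 listed genes of pericentromeric heterochromatin and RNA interference, 25 were tested and 0 are members. None was called under the nht1 label or in iec5, and 3 rose under the iec1 label. These were tas3 (0.70, SE 0.19, edgeR adjusted p = 0.0245), which bridges Chp1 and Argonaute, dsh1 (0.62, SE 0.17, edgeR adjusted p = 0.0286) and the demethylase-related lid2 (0.55, SE 0.15, edgeR adjusted p = 0.0286). Of 27 listed genes of CENP-A and the inner kinetochore, 25 were tested and 0 are members. Under the nht1 label ams2, the GATA factor of histone genes, rose (0.69, SE 0.18, edgeR adjusted p = 0.0391). The gene cnp3, which encodes the CENP-C protein, fell (-1.05, SE 0.17, edgeR adjusted p = 0.00129). Under the iec1 label cnp20 rose (1.50, SE 0.43, edgeR adjusted p = 0.0319), as did ams2 (0.98, SE 0.18, edgeR adjusted p = 0.0015). The cohesin loader gene mis4 rose too (0.61, SE 0.18, edgeR adjusted p = 0.0341). There cnp3 fell (-1.22, SE 0.17, edgeR adjusted p = 0.000166), and in iec5 none was called. Over all coding genes 8.04% rose and 2.21% fell under the iec1 label, and 3.14% rose and 0.989% fell under the nht1 label. Their medians were 0.00, 0.07 and 0.02 for the first list and -0.08, 0.11 and -0.02 for the second, under the nht1 label, under the iec1 label and in iec5.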

How the data were processed

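The authors deposited counts per feature in a coding and a noncoding table, with 2 libraries for each of 4 groups. The submitters' processing notes name HISAT2 2.1.0, featureCounts 1.6.1, DESeq2 1.28.0 and build ASM294v2. Strand setting and treatment of multiply mapping reads are not given in the sources, although the kit is strand-specific per the labels' protocols. Deposited gene lengths equal the whole gene span.

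Here edgeR 4.0.16 (R 4.3.3; TMM, filterByExpr, quasi-likelihood F test, 1 fit over all 8 libraries) was run on each whole table, with Benjamini-Hochberg adjustment and a threshold of 0.05, over 4652 coding and 1096 noncoding features. It was checked on simulated data. Alternatives were RLE size factors, DESeq2 1.42.0, no filter, a replicate block, 2 groups only and leaving out each library. Named genes were the 3 nearest each side of each interval, every member called, the 3 highest and 3 lowest by level, the genes named in the genotypes and up to 4 called genes of each list. Members and lists were chosen with earlier results of these data known. The biological coefficient of variation was 11.9%. Replicates differed beyond counting noise (chi-square per degree of freedom between 7.07 and 9.56). Floors of 3 counts cover counting error only. RefSeq (ASM294v3) gave names and promoter windows for all 133 members.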

Additional observations from a re-analysis of the deposited data

How the results depend on the processing

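Of the counts and medians over the members, 163 values under an alternative stayed close to the reported ones and 35 moved. RLE size factors, DESeq2 and no filter gave the same member counts, while with DESeq2 the median was 0.0277 for nht1, against 0.058 as reported, and 0.0564 for iec1. With the replicate block the members called were 10 for nht1, 20 for iec1, 10 for iec1 over iec5, 1 for nht1 over iec5, and 6 noncoding features for nht1. A shared effect of same-numbered libraries was neither shown nor excluded. Their deviations from the group means correlated between -0.0694 and 0.274 over 6 pairs of groups. With the 2 groups alone, iec1 over iec5 gave 1. A minimum log2 fold change of 1 left 3 for nht1, 5 for iec1 and 2 for iec1 over iec5. Leaving out 1 library gave 0 to 8 calls for nht1, 3 to 15 for iec1, 0 to 1 for iec1 over nht1 and for nht1 over iec5, and 1 to 6 for iec1 over iec5. Medians then ran between 0.000581 and 0.0744 for nht1, 0.0271 and 0.102 for iec1, and 0.00909 and 0.0563 for iec5. Noncoding calls ran 0 to 4 for nht1 and 2 to 7 for iec1. Distance from the interval's midpoint moved the classes to 1 and 5 (nht1, 10 to 25 kb and over 25 kb) and 1 and 14 (iec1). Members within 25 kb alone held 3 and 8 calls. Depth limits features of few reads, such as those inside the coding-free intervals.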
